A study of Homo sapiens with 9 samples.

Results

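Complement genes expressed by tumour cells were compared across 3 lines of the MCF-10A breast cancer series. The set holds 9 genes taken by symbol: the protease and opsonin genes C3, CFB, C1R, C1S and CFI, the soluble inhibitor SERPING1, and the membrane regulators CD46, CD55 and CD59. They are 9 of the 19775 genes with a probe set of their own on the array, and all 20 probe sets annotated to them alone were read. Total RNA of 3 human breast epithelial cell lines was hybridised to 1-colour Affymetrix arrays. MII (MCF-10AT1Kcl2) stands for carcinoma in situ, MIII (MCF-10A1h) for carcinoma and MIV (MCF-10A1a) for metastatic carcinoma by their labels, with 3 arrays per line and 9 in all. The lines are untreated derivatives of MCF-10A, a non-tumorigenic breast line, that carry activated HRAS, and each stage is represented by 1 line. All grew in the same DMEM/F12 medium with horse serum, penicillin and streptomycin, insulin, cholera toxin, epidermal growth factor and hydroxycortisone. The labels call the replicates biological without saying whether cultures were separate, so every p-value rests on array-to-array spread that could be partly technical.

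Complement is a cascade of plasma proteases that tags and lyses cells. In the classical pathway C1r activates C1s, which cleaves C4 and C2. In the alternative pathway factor B joins C3b and becomes the protease that cleaves more C3. Human cells protect themselves with CD46 and factor I, which inactivate C3b, with CD55, which takes convertases apart, and with CD59, which blocks the membrane attack complex. The liver makes most plasma complement, and epithelial cells and fibroblasts also make C3, factor B, C1r and C1s, above all under inflammatory cytokines.

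The values are MAS5 signals on a linear scale, and median signals lay between 64.7 and 74.9 on the 9 arrays. The pooled median of 69.3 serves here as the mark of a dim signal, since no detection calls were used. MIV replicate 3 stood apart in its bioB spike-in control, with a mean of 3133 against 1001 to 1523 on the other arrays. Of 7 epithelial marker genes, 6 were above the pooled median on every array of each line, and KRT19 was below it on all 9. EPCAM averaged 17233 in MII, 3737 in MIII and 18774 in MIV, and CDH1 averaged 12055, 1305 and 7288 in the same order. KRT14 averaged 2155, 957 and 137 and KRT5 25794, 26309 and 25069, so the epithelial markers did not share 1 pattern. A gene was tested when at least 3 of 9 arrays exceeded 69.3, and called in limma at an adjusted p under 0.05 with a change of at least 2-fold on the log2(signal + 18.3) scale. That scale understates the change of dim genes. Levels are compared between lines for the same probe set and never between genes.

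The 4 protease genes of the set had their highest signals in MIII, on the probe set that represents each gene. C1R, C1S, CFI and CFB were bright in MIII and dim in both MII and MIV, and C3 was high in MIII and MIV and lower in MII. The membrane regulators stayed bright in all 3 lines and moved by less than 2-fold on the probe set that represents each gene, and SERPING1 was dim on every array. In MIII against MII, 5 of the 9 genes were called, all higher, where 6.17% of the 12594 genes tested were called higher and 11.7% in either direction. In MIV against MIII, 4 were called, all lower, where 7.79% of genes were called lower, 4.95% higher and 12.7% in either direction. In MIV against MII only C3 was called, higher, where 2.96% of genes were called higher and 8.14% in either direction. SERPING1 did not reach the signal needed for testing, and C1R, C1S and CFI reached it through their MIII arrays alone (CFB through these and 1 MIV array), so they were bound to differ and the counts are given as a description. With all 19775 genes tested and no signal minimum the counts were the same. By probe set, 8 of the 18 that passed the minimum were called in MIII against MII, 6 in MIV against MIII, and 1 when MIV was set against MII, beside 10.1%, 11.1% and 6.72% of 29597 probe sets.

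**Figure D1:**
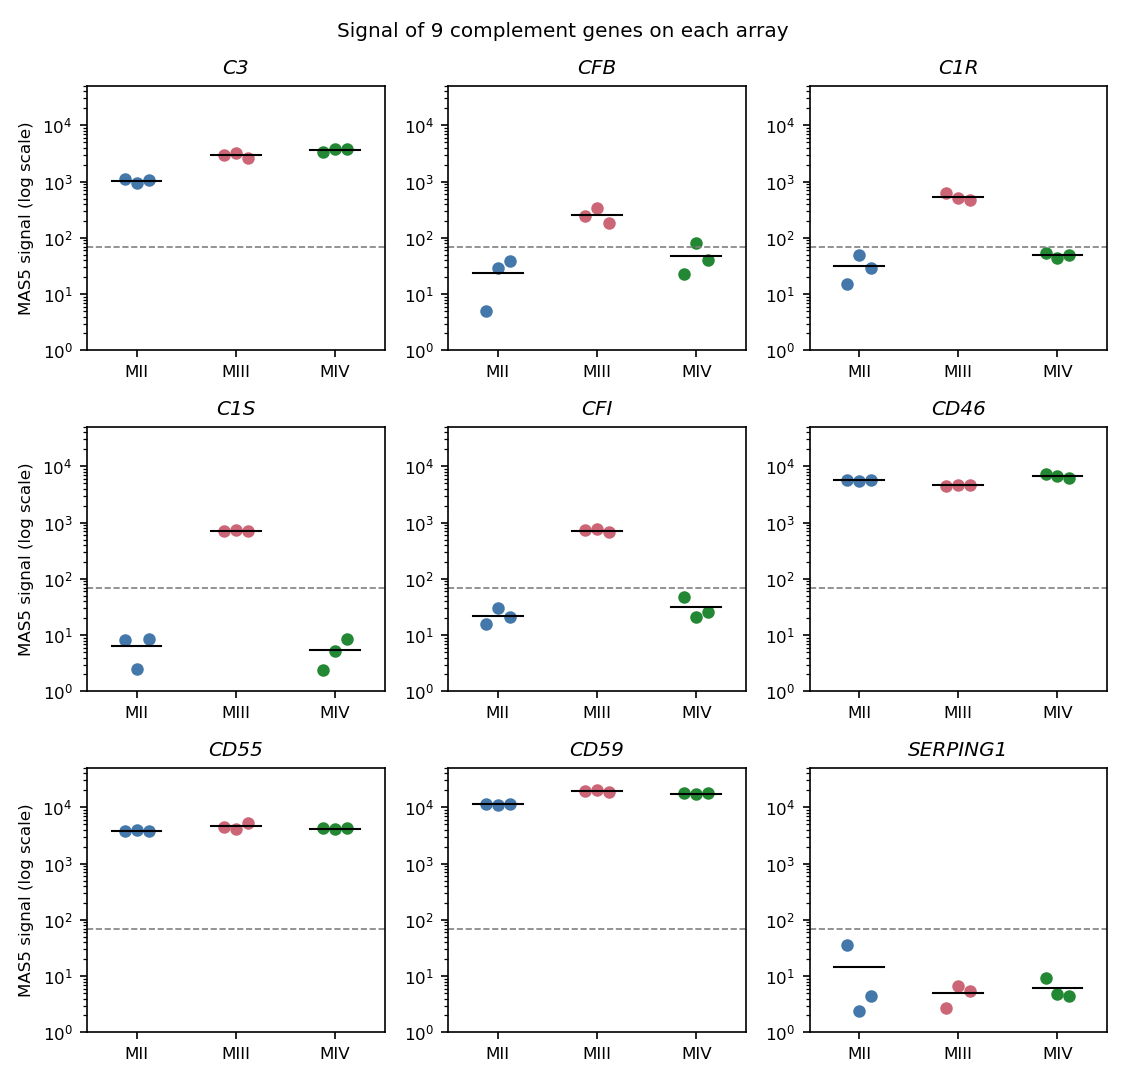
MAS5 signal (log axis) of the representative probe set of each gene on the 3 arrays of MII, MIII and MIV, with the mean as a line and the pooled median of 69.3 dashed; SERPING1 is shown on its single probe set. C1R, C1S, CFI and CFB stand above the dashed line in MIII, C3 lies lower in MII than in MIII and MIV, and the 3 CD genes lie far above it in every line.

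C1R and C1S encode the paired proteases of the C1 complex. C1S gave signals of 8.3, 2.5 and 8.5 in MII, 699, 733 and 722 in MIII, and 2.4, 5.2 and 8.5 in MIV. The 3 MIII arrays were far above all others, and MII and MIV overlapped at the bottom of the scale. The log2 change was 4.91 ± 0.28 (SE) in MIII against MII (limma adjusted p = 5.38e-09) and -4.97 ± 0.28 in MIV against MIII (adjusted p = 4.24e-09). Between MIV and MII it was -0.06 ± 0.28, with a 95% interval of -0.67 to 0.54 and an adjusted p of 0.886. A dimmer probe set of C1S, 1555229_a_at, averaged 1.2 ± 0.4 in MII, 187 ± 26.1 in MIII and 6.5 ± 2.7 in MIV, with SDs over 3 arrays. It changed by 3.39 ± 0.36 in MIII against MII and by -3.05 ± 0.36 in MIV against MIII in the fit over 29597 probe sets, with adjusted p of 4.5e-06 and 1.08e-05.

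C1R, measured by 1 probe set, gave 15.3, 50 and 29.0 in MII, 633, 510 and 469 in MIII, and 52.9, 43.8 and 50.1 in MIV. As for C1S, all MIII arrays lay above the other 6, which overlapped. Its log2 change was 3.53 ± 0.26 in MIII against MII (adjusted p = 8.9e-08) and -3.04 ± 0.26 in MIV against MIII (adjusted p = 3.79e-07), or 11.6-fold and 0.122-fold on the offset scale. In MIV against MII the change was 0.49 ± 0.26 (adjusted p = 0.159), and without MII replicate 2 it was 0.75 with an adjusted p of 0.0321, still short of 2-fold.

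CFI encodes factor I, the protease that inactivates C3b and C4b. Its brighter probe set gave 16.1, 29.8 and 20.6 in MII, 734, 754 and 668 in MIII, and 47.5, 21.0 and 25.9 in MIV. The MIII arrays stood alone above the pooled median. On the log2 scale the change was 4.20 ± 0.25 in MIII against MII (adjusted p = 8.8e-09), -3.92 ± 0.25 in MIV against MIII (adjusted p = 1.7e-08) and 0.28 ± 0.25 between MIV and MII (adjusted p = 0.418). The other probe set, 1555564_a_at, showed the same order, with 14.4 ± 5.2 (SD, n = 3) for MII, 346 ± 34.3 for MIII and 27.0 ± 14.5 for MIV. Its changes were 3.49 ± 0.29 in MIII against MII and -3.05 ± 0.29 in MIV against MIII.

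CFB encodes factor B, the catalytic subunit of the alternative pathway convertase. Its probe set 202357_s_at gave 5.1, 28.6 and 38.7 in MII, 247, 334 and 184 in MIII, and 22.4, 80.9 and 40.8 in MIV. MIII lay above both other lines without overlap, with a mean of 255 ± 75.1 (SD, n = 3), and only 1 MIV array exceeded the pooled median. CFB changed on the log2 scale by 2.75 ± 0.40 in MIII against MII (adjusted p = 6.6e-05) and -2.10 ± 0.40 in MIV against MIII (adjusted p = 0.000559). In MIV against MII it was 0.64 ± 0.40 (adjusted p = 0.227), with an interval of -0.22 to 1.51. The second CFB probe set, 211920_at, did not show this difference: it stayed between 5.1 and 30.4 on all 9 arrays, under the pooled median.

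The promoters of the MIII-high genes are shown because cytokines are known to act on complement genes through sites near the start. They are the CFB, C1R and CFI entries of a RefSeq table of the GRCh38.p14 assembly, where 6 of the 9 genes had an entry. Each runs 5′ to 3′ on the gene's strand from 250 bases before the start to 50 after it. Capitals mark matches on either strand to the STAT motif TTCNNNGAA, the interferon-stimulated response element (2 GAAA half-sites with 2 bases between them), the C/EBP motif TTGCNNAA or the kappaB consensus. The CFB window is chr6:31945845-31946144 (plus strand), the C1R window chr12:7092396-7092695 (minus strand) and the CFI window chr4:109801950-109802249 (minus strand).
CFB: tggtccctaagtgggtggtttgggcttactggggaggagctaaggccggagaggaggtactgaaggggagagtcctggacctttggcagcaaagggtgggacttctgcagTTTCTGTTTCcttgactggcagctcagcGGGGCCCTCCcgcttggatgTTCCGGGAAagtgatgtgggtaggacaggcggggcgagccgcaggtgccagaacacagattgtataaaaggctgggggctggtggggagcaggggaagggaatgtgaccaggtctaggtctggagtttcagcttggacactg
C1R: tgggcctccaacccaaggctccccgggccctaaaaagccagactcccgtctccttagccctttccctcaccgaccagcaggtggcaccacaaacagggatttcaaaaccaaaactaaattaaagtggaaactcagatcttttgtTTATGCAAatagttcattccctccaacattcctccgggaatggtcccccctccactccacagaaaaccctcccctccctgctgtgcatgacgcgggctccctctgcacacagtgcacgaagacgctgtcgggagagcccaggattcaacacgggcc
CFI: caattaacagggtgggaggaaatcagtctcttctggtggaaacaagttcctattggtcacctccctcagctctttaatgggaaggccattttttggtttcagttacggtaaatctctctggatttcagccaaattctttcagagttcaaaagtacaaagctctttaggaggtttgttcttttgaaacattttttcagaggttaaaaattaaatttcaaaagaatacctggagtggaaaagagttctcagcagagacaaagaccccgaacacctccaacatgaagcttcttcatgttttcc
The CFB window held a match to 3 of the motifs: TTTCTGTTTC, an interferon-stimulated response element read on the other strand, first base 140 before the start; the kappaB match GGGGCCCTCC, 112 before it; and the STAT match TTCCGGGAA, 92 before it. None of these overlapped. The C1R window held 1 match, the C/EBP match TTATGCAA at 106 before the start, and the CFI window held none. Of the CD46, CD55 and CD59 windows only that of CD59 held a match, TTCTCAGAA for STAT at 128 before the start. Of 27305 promoters of the same length, 3.65% held the interferon-stimulated response element, 7.88% the STAT motif, 10.6% the C/EBP motif and 10.8% the kappaB consensus. These letters describe the windows and say nothing of whether a factor was bound in these cells.

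C3, the central component that all pathways cleave, followed another pattern. Its single probe set gave 1090.3, 945 and 1085.5 in MII, 3010, 3272 and 2673 in MIII, and 3372, 3832 and 3847 in MIV. All MII arrays lay below the other 6, and the MIV arrays lay above those of MIII by a narrow margin. Its log2 change was 1.502 ± 0.08 in MIII against MII (adjusted p = 4.69e-09) and 1.81 ± 0.08 in MIV against MII (adjusted p = 1.16e-09), or 2.83-fold and 3.50-fold. Between MIV and MIII it was 0.30 ± 0.08, with an interval of 0.12 to 0.49 and an adjusted p of 0.00809, short of 2-fold. C3 was the one tested gene of the set higher in MIV than in MII past both thresholds.

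SERPING1 encodes C1 inhibitor, the serpin that inactivates C1r and C1s. Its probe set gave 36.1, 2.4 and 4.5 in MII, 2.7, 6.8 and 5.5 in MIII, and 9.2, 4.8 and 4.4 in MIV. All 9 values were under the pooled median, and the lines overlapped in each comparison. Fitted without a signal minimum, its log2 changes were -0.34 in MIII against MII, -0.28 in MIV against MII and 0.07 in MIV against MIII, with adjusted p between 0.53 and 0.925. A value this low does not show that the gene is silent.

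**Figure D2:**
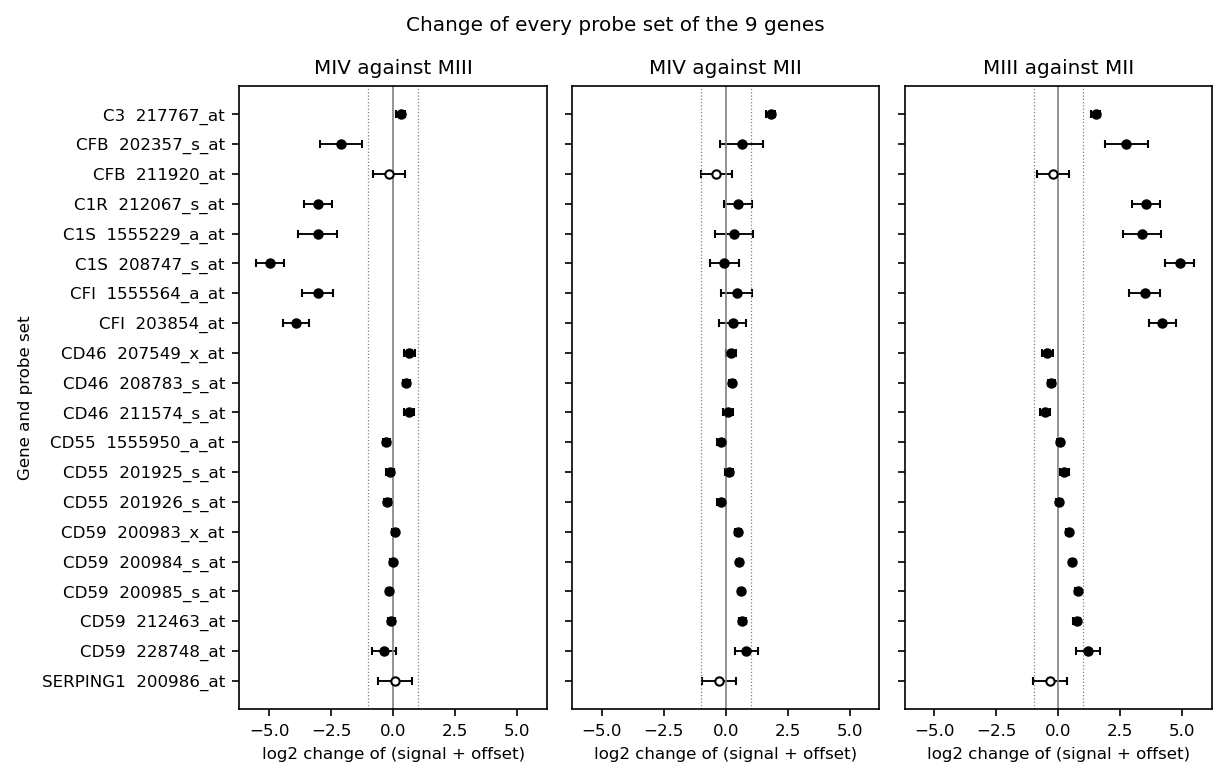
Log2 change with its 95% interval for each of the 20 probe sets in the 3 comparisons, with dotted lines at 2-fold; filled points passed the signal minimum and open points, 1 for CFB and the one for SERPING1, did not. In both comparisons that involve MIII the tested C1R, C1S, CFI and CFB probe sets lie beyond the dotted lines, the open CFB point lies at -0.22 in MIII against MII and -0.15 in MIV against MIII with intervals that span 0, and the CD probe sets lie within the dotted lines except 1 of CD59.

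CD46 encodes the membrane cofactor with which factor I cleaves C3b. On its brightest probe set, 208783_s_at, it gave 5788, 5379 and 5760 in MII, 4535, 4697 and 4704 in MIII, and 7235, 6733 and 6282 in MIV. The lines did not overlap, with MIII lowest and MIV highest. The log2 change was -0.28 ± 0.06 in MIII against MII (adjusted p = 0.00108), 0.54 ± 0.06 in MIV against MIII (adjusted p = 2.72e-06) and 0.26 ± 0.06 in MIV against MII (adjusted p = 0.00244), all short of 2-fold. The other probe sets, 207549_x_at and 211574_s_at, also had MIII lowest, at -0.44 ± 0.10 and -0.55 ± 0.09 against MII. In MIV against MII they gave 0.22 ± 0.10 and 0.10 ± 0.09, where the limma adjusted p was 0.0989 and 0.449. The estimate was thus positive on all 3 probe sets and passed the adjusted p on 1, and on 211574_s_at the arrays overlapped. CD46 was the one tested gene of the set that was lower in MIII than in both other lines.

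CD59, a small GPI-anchored protein that keeps C9 out of the membrane, was higher in MIII and MIV than in MII. Its brightest probe set, 200985_s_at, gave 11369, 11042 and 11608 in MII, 19372, 19946 and 19059 in MIII, and 17629, 17144.5 and 17623 in MIV. MII was lowest without overlap on each of the 5 probe sets. The log2 change was 0.78 ± 0.04 in MIII against MII (adjusted p = 2.24e-09) and 0.62 ± 0.04 in MIV against MII (adjusted p = 3.63e-08), or 1.71-fold and 1.54-fold. Across the other 4 probe sets it lay between 0.41 and 1.199 in MIII against MII and between 0.50 and 0.84 in MIV against MII. The highest of these, 1.199 ± 0.22 for 228748_at, was the only one past 2-fold (adjusted p = 0.00058), on a probe set with a mean of 143 ± 33.5 in MII. In MIV against MIII the brightest probe set gave -0.16 ± 0.04 (adjusted p = 0.00555), while on the other 4 the arrays overlapped, with values from -0.36 to 0.08, and no difference passed the test.

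CD55, the GPI-anchored decay-accelerating factor, moved by less than 2-fold on every probe set, and its probe sets differed in sign in MIV against MII. On 201925_s_at it gave 3783, 3948 and 3845 in MII, 4553, 4052 and 5222 in MIII, and 4226, 4118.5 and 4243 in MIV. MIII spread widely and overlapped MIV, and MII lay below both. The log2 change was 0.25 ± 0.07 in MIII against MII (adjusted p = 0.0132), 0.12 ± 0.07 in MIV against MII (adjusted p = 0.216) and -0.13 ± 0.07 in MIV against MIII (adjusted p = 0.17), with intervals of 0.09 to 0.41, -0.04 to 0.28 and -0.29 to 0.03. Without MIII replicate 3, the highest array, the first value was 0.15 with an adjusted p of 0.0624. On 1555950_a_at and 201926_s_at, MIV was instead lower than MII, at -0.21 ± 0.06 each, with adjusted p of 0.0184 and 0.0211. Those probe sets gave -0.28 ± 0.06 and -0.23 ± 0.06 in MIV against MIII, with adjusted p of 0.00241 and 0.00858, and 0.07 ± 0.06 and 0.02 ± 0.06 in MIII against MII, where the test was not passed.

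Across the set, 8 of the 8 tested genes had non-overlapping arrays in MIII against MII, 7 in MIV against MIII, and 4 when MIV was set against MII, where 55.3%, 58.8% and 50.7% of all tested genes did. The exact two-sided permutation test gives p = 0.1 for any such gene, the smallest value that 3 arrays against 3 allow. The median log2 change over the 8 tested genes was 2.12 in MIII against MII, -1.13 in MIV against MIII, and 0.38 where MIV was set against MII, beside medians of -0.02, -0.01 and -0.03 over all genes tested. These medians include genes tested only because MIII was high.

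Other complement genes were mostly dim. Of 25 further components, 23 had a probe set of their own and 4 were tested, C2, C5, C8B and C1RL. C1RL, a C1r-like protease, had signals of 286, 202 and 261 in MII, 559, 646 and 590 in MIII, and 219.5, 195 and 219.9 in MIV. It rose by 1.21 ± 0.14 in MIII against MII and fell by 1.42 ± 0.14 in MIV against MIII (adjusted p of 6.33e-06 and 1.14e-06), although its second probe set was not called. C5, which starts the terminal pathway, rose by 1.03 ± 0.23 in MIII against MII (adjusted p = 0.00237), with a mean of 61.3 for MII, 144 for MIII and 71.5 for MIV. C2 averaged 70.9 in MII, 46.3 in MIII and 58.7 in MIV, and C8B averaged 38.7, 54.8 and 38.6 in the same order. Neither was called in any comparison, and the arrays overlapped in each. C1QA, C1QB, C1QC, C6, C7, C8A, C8G and C9 did not reach the signal minimum.

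Among 21 further regulators, 6 were tested. Clusterin (CLU), a secreted chaperone that binds terminal complement complexes, averaged 117 in MII, 501 in MIII and 93.7 in MIV, with log2 changes of 1.96 ± 0.23 in MIII against MII and -2.26 ± 0.23 in MIV against MIII. Protein S (PROS1), an anticoagulant that circulates partly bound to C4b-binding protein, averaged 29.2 in MII, 267 in MIII and 107 in MIV. It rose by 2.61 ± 0.23 in MIII against MII and by 1.42 ± 0.23 in MIV against MII, and fell by 1.19 ± 0.23 in MIV against MIII. All MII arrays of PROS1 were under the pooled median. PROS1 was tested through its MIII and MIV arrays, so it was bound to differ from MII. CFHR2, a factor H-related protein, fell by 1.06 ± 0.30 in MIV against MIII (adjusted p = 0.00809). Thus 2 of the 6 rose and none fell in MIII against MII, 3 fell and none rose in MIV against MIII, and 1 rose in MIV against MII. Over all genes tested, 6.17% rose in MIII against MII, 7.79% fell in MIV against MIII and 2.96% rose in MIV against MII.

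Of 11 complement receptors 6 were tested. C5AR1, the receptor of C5a, averaged 40.5 in MII, 172 in MIII and 13.0 in MIV, with a log2 change of 1.70 ± 0.34 in MIII against MII (adjusted p = 0.000895) and -2.64 ± 0.34 in MIV against MIII (adjusted p = 1.68e-05). C5AR1 reached the signal minimum through its MIII arrays alone, so it was bound to differ. LRP1, a large endocytic receptor, rose by 1.19 ± 0.36 in MIII against MII and fell by 1.96 ± 0.36 in MIV against MIII. ITGB2, the beta chain of the leukocyte integrins that bind C3 fragments, was highest in MII, with 831, 889 and 930 there, 155, 167 and 139 in MIII, and 60.6, 81.2 and 91.1 in MIV. Its log2 change was -2.39 ± 0.16 in MIII against MII and -3.24 ± 0.16 in MIV against MII.

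**Figure D3:**
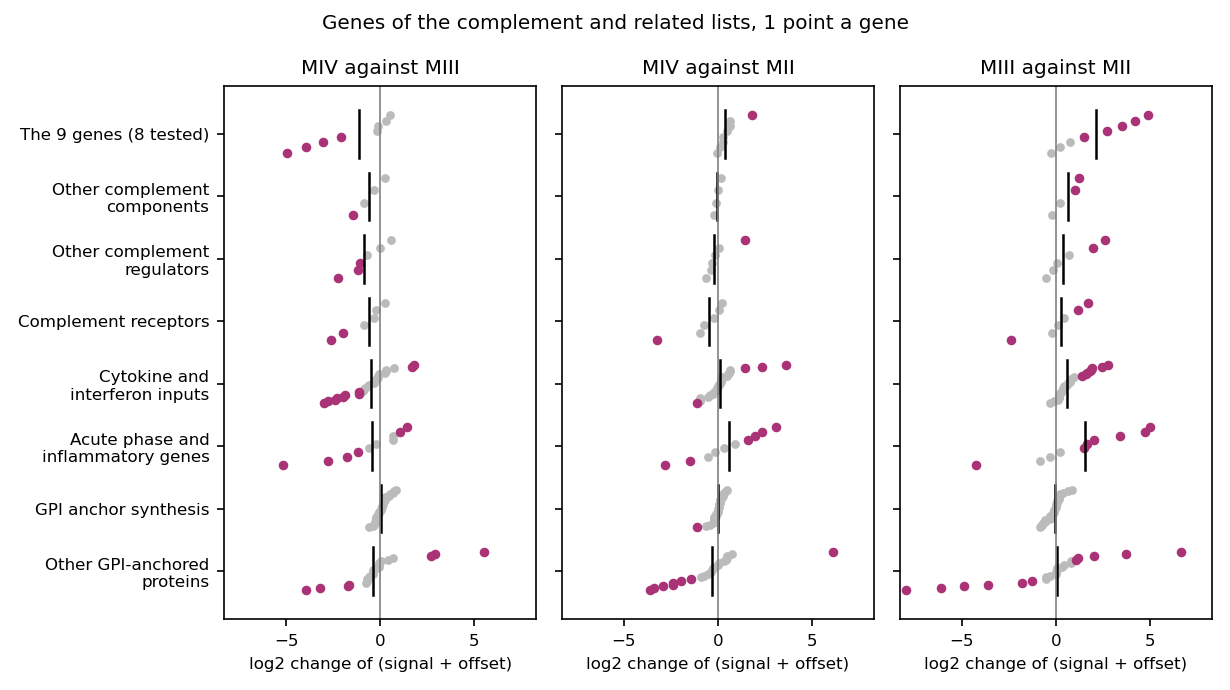
Log2 change of each tested gene in 8 lists for the 3 comparisons; coloured points were called, grey points were not, black bars are list medians, and the height of a point within its row only separates the genes. Called points of the complement, cytokine and acute phase lists lie mostly left of 0 in MIV against MIII and right of 0 in MIII against MII, while the GPI synthesis row has 1 called point, PIGZ in MIV against MII.

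Genes of the cytokine signals known to induce complement were tested as a further list, of which 26 of 30 could be tested. In MIII against MII, 8 rose and none fell (median 0.61), in MIV against MIII, 2 rose and 8 fell (median -0.47), and in MIV against MII, 3 rose and 1 fell (median 0.09). Over all genes tested, 6.17% rose and 5.55% fell in MIII against MII, and 4.95% and 7.79% in MIV against MIII. For MIV against MII these shares were 2.96% and 5.18%. IL6 had signals of 55.8, 21.1 and 49.4 in MII, 442, 324 and 378 in MIII, and 44.5, 67.9 and 3.8 in MIV. Only the MIII arrays of IL6 were above the pooled median, so IL6 was tested through them alone and was bound to differ. Its log2 change was 2.77 ± 0.43 in MIII against MII (adjusted p = 0.000102) and -3.01 ± 0.43 in MIV against MIII (adjusted p = 4.13e-05). IL6ST, the signal chain shared by the receptors of this cytokine family, averaged 1841 in MII, 7121 in MIII and 1901 in MIV, changing by 1.94 ± 0.06 in MIII against MII and -1.90 ± 0.06 in MIV against MIII. MIII was also highest for the TNF receptor TNFRSF1A (1255, 7007 and 1717), the interleukin 1 receptor IL1R1 (174, 484 and 82.3), LIFR (73.9, 330 and 49.3) and the feedback inhibitor SOCS3 (123, 417 and 45.8), each given as the mean in MII, MIII and MIV. IL6ST, LIFR and SOCS3 each had 1 probe set that was not called.

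The interleukin 1 genes themselves did not follow C1R and C1S. IL1A gave 105, 46.8 and 80.8 in MII, 263, 349 and 335 in MIII, and 1001, 1174 and 1223 in MIV, a change of 3.63 ± 0.20 in MIV against MII and 1.79 ± 0.20 in MIV against MIII. A second IL1A probe set was not called in any comparison. IL1B rose by 2.33 ± 0.11 in MIV against MII and by 1.59 ± 0.11 in MIII against MII. NFKB2, a subunit of NF-kB, rose in MIV by 1.42 ± 0.13 against MII and by 1.71 ± 0.13 against MIII, with a second probe set at 0.78 against MIII that was not called. STAT3, NFKB1, RELA, CEBPB, CEBPD and IRF1, factors that bind the motifs searched above, were not called in any comparison.

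Acute phase and epithelial inflammatory genes were divided. Of 10 tested, 6 rose and 1 fell in MIII against MII (median 1.57), 2 rose and 4 fell in MIV against MIII (median -0.42), and 4 rose and 2 fell in MIV against MII (median 0.60). The shares over all genes were those given for the cytokine list. PTX3, a pentraxin that binds C1q and factor H, had 19.3, 30.7 and 3.0 in MII, 1048, 998 and 1192.5 in MIII, and 16.3, 20.3 and 2.4 in MIV. Its change of 5.01 ± 0.33 in MIII against MII and -5.18 ± 0.33 in MIV against MIII was of the size seen for C1S. PTX3 also exceeded the pooled median on its MIII arrays alone, so it was bound to differ. SERPINA1 (alpha-1 antitrypsin) averaged 165 in MII, 4809 in MIII and 696 in MIV, though 1 of its 3 probe sets was not called in MIII against MII. SERPINA3 (antichymotrypsin) was, like C3, higher in both later lines, with a mean of 7441 for MII, 23388 for MIII and 37335 for MIV, or 1.65 ± 0.06 in MIII against MII and 2.32 ± 0.06 in MIV against MII. CXCL8 had the same order, at 857, 3563 and 7261. The chemokine CXCL1 averaged 615 in MII, 6601 in MIII and 1928 in MIV, with log2 changes of 3.39 ± 0.11 in MIII against MII and -1.78 ± 0.11 in MIV against MIII. LCN2, the siderophore-binding lipocalin, was lowest in MIII, with a mean of 5387 for MII, 265 for MIII and 745 for MIV.

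CD55 and CD59 reach the surface on GPI anchors, whose synthesis genes changed by less than 2-fold with 1 exception. Of 27 tested genes of anchor synthesis and transfer, none was called in MIII against MII or in MIV against MIII, and PIGZ alone was called in MIV against MII, at -1.10 ± 0.35 (adjusted p = 0.0211). The smallest p in the other comparisons belonged to PGAP2, at -0.83 ± 0.07 in MIII against MII and 0.86 ± 0.07 in MIV against MIII. At an adjusted p under 0.05 without a fold minimum, 11 of the 27 differed in MIII against MII, 11 in MIV against MIII, and 10 when MIV was set against MII, beside 47.2%, 51.9% and 42.2% of all genes. Of 22 other GPI-anchored proteins tested, 5 rose and 6 fell in MIII against MII, 3 rose and 4 fell in MIV against MIII, and 1 rose and 7 fell in MIV against MII. The shares of all genes that rose and fell were those given for the cytokine list. The called ones had several patterns. PSCA averaged 11485 in MII, 30.9 in MIII and 2168 in MIV, and CEACAM6 (4846, 52.9 and 440) and CD24 (22527, 747 and 5802) were likewise lowest in MIII. BST2 averaged 6.2, 2502 and 1675 and ALPP 235, 2.2 and 2.4 in the same order, both with lines under the pooled median. TFPI (1952, 3383 and 356) and LYPD3 (3143, 1300 and 391) were lowest in MIV.

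C1R, C1S and C1RL lie beside each other on chromosome 12. Of the 20 tested genes nearest to C1S in genome order, 10 on each side, 6 rose and none fell in MIII against MII (median 0.64), 6 fell and none rose in MIV against MIII (median -0.63), and none was called in MIV against MII (median -0.09). Those that rose were ENO2, ATN1, C12orf57, C1R, C1RL and SLC2A3, and those that fell were ENO2, C12orf57, LPCAT3, C1R, C1RL and SLC2A3. Over all genes tested, 6.17% rose in MIII against MII and 7.79% fell in MIV against MIII. ENO2 and SLC2A3, like C1R, reached the signal minimum through their MIII arrays alone. In MIII against MII the log2 change was 2.09 ± 0.39 for ENO2, 1.89 ± 0.10 for C12orf57 and 2.38 ± 0.39 for SLC2A3. Between C12orf57 and C1S, PHB2 (0.42 ± 0.04), EMG1 (0.63 ± 0.05) and LPCAT3 (0.66 ± 0.12) passed the adjusted p in the direction of C1S without reaching 2-fold. MIR200CHG in the same stretch passed in the other direction (-0.71 ± 0.24, adjusted p = 0.0272), and PTPN6 (-0.18 ± 0.11) did not pass. In MIV against MIII, LPCAT3 fell by 1.06 ± 0.12 (adjusted p = 3.43e-06), and PHB2 (-0.28 ± 0.04) and EMG1 (-0.22 ± 0.05) also fell past the adjusted p. There PTPN6 rose by 0.62 ± 0.11 (adjusted p = 0.000248) and MIR200CHG by 0.61 ± 0.24 (adjusted p = 0.0496), against the direction of C1S and short of 2-fold. The part of a regional shift in the values of C1R and C1S was not tested.

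**Figure D4:**
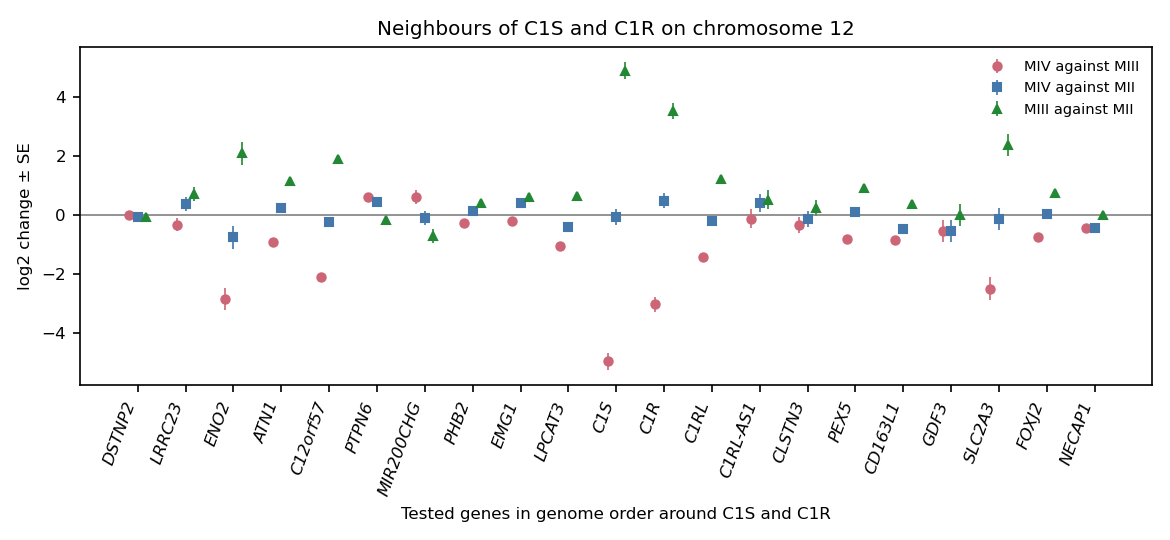
Log2 change with its SE for C1S, C1R and their tested neighbours in genome order, evenly spaced, in the 3 comparisons. C1S and C1R lie at 4.91 and 3.53 in MIII against MII and at -4.97 and -3.04 in MIV against MIII, where ENO2 lies at -2.85 ± 0.39 and differs from C1R by less than either SE. Several neighbours on either side shift the same way, PTPN6 and MIR200CHG lie on the other side of 0 from C1S in both, and the offset of 18.3 sets the size of changes from dim signals.

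CD46 and CD55 belong to a cluster of complement regulator genes on chromosome 1 that also holds CR1 and C4BPA. CR1 and C4BPA were not called in any comparison, with log2 changes of 0.43 and -0.51 in MIII against MII and of -0.22 and 0.57 in MIV against MIII. Of the 20 tested genes around CD46, 1 rose and 1 fell in MIII against MII (median -0.10), and 3 rose and none fell in MIV against MIII (median -0.08), none of the called genes being a complement gene. Of the 20 around CFB on chromosome 6, none was called in any comparison, and of the 20 around CFI on chromosome 4, 3 rose in MIII against MII and 1 rose and 1 fell in MIV against MIII.

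Of 8 markers of fibroblasts, cells that also make C1r and C1s, 5 were tested and 4 were called higher in MIII than in both other lines. Over all genes tested, 6.17% were called higher in MIII against MII and 7.79% lower in MIV against MIII. The summed signal of 8 fibroblast markers lay between 447 and 499 on the MII arrays, between 4525 and 4809 on the MIII arrays and between 433 and 442 on the MIV arrays. COL3A1, DCN, LUM and THY1 were called higher in MIII than in MII, while COL1A2, PDGFRA and PDGFRB were under the pooled median on all arrays of all lines and COL1A1 averaged 243 in MII, 213 in MIII and 223 in MIV. COL3A1 and LUM were under the pooled median on every MII and MIV array, so they were tested through MIII alone and were bound to differ. The summed signal of 7 monocyte and macrophage markers was 1698 to 1802 in MII, 730 to 813 in MIII and 565 to 650 in MIV, and PTPRC, CD163, LYZ, TYROBP and AIF1 were under the pooled median on every array. CD14 was called lower in MIII and in MIV than in MII, and CSF1R was called higher in MIV than in MIII. Of 8 hepatocyte markers, ALB, APOB, TTR, AHSG and FGA were under it on all arrays of all lines. Of 6 lymphocyte and 6 endothelial markers with a probe set, 2 and 1 had enough signal to be tested, and none of these was called. The endothelial one, PECAM1, averaged 174 in MII, 251 in MIII and 306 in MIV, at 0.78 ± 0.20 in MIV against MII (adjusted p = 0.0065), short of 2-fold. The part of fibroblast marker expression in the MIII values of C1R, C1S, CFI and CFB was not tested. In RNA from a whole culture, more expressing cells and more RNA per cell cannot be told apart.

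Genes with the most similar profile were found by the root mean square difference of centred log2 values over the 9 arrays, among the 12594 genes tested. For C3 these were NDRG1 and TRABD2A, both at 0.15. For C1S they were S1PR3 (0.21) and COL6A2 (0.23), for C1R SULT1B1 (0.28) and CST1 (0.28), for CFI MSRB3 (0.25) and SAMSN1 (0.30), and for CFB LAPTM5 (0.36) and RBMS3 (0.42). Within the set, C1R was the 10th nearest gene to CFI, at 0.43, and CFI the 12th nearest to C1S, at 0.55. In the other direction CFI ranked 24th from C1R, and C1S ranked 28th from CFI. From C1S, C1R ranked 48th at 0.89, and from C1R, C1S ranked 256th. C1R, C1S and CFI passed the signal minimum through their MIII arrays alone, so a shared order with MIII highest was bound to appear. From CFB, C1R ranked 75th at 0.61, CFI 777th at 0.97, CD59 1202nd at 1.04 and C3 1566th at 1.08. CD55 followed as 3378th at 1.19, C1S as 6889th at 1.31 and CD46 as 9806th at 1.43. By this measure CFB thus lay nearer to CD59, C3 and CD55 than to C1S, although CFB fell in MIV against MIII and C3 did not. From C3, CFB ranked only 10716th. The measure depends on the size of a change as well as its order.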

How the data were processed

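Total RNA of the 3 cell lines was measured on 9 Affymetrix arrays of 54675 probe sets. The deposited values are linear intensities, made by the authors with MAS5 per the submitters' processing notes. Each array's trimmed mean was close to 500.07. The software version is not given in the sources used here. Control probe sets (62) were left out. GEO's platform annotation gave 41091 probe sets 1 gene, 1801 several and 11721 none, and genes were read from probe sets of 1 gene only. Values were taken as log2(signal + 18.3), the offset being the pooled 25th percentile. Genes needed 3 of 9 arrays above 69.3, the pooled median, and were represented by the probe set with the highest mean, which left 12594 genes.

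A group-means model of all 9 arrays was fitted in R 4.3.3 (limma 3.58.1), letting the prior variance follow mean signal, with 6 residual degrees of freedom and Benjamini-Hochberg adjustment over all genes tested. A second fit took 29597 probe sets. The number of arrays limits the precision. On simulated data with 200 genes changed by 2-fold, 73% to 82% passed the adjusted p and 41.5% to 46.5% were called. A 2-fold change lies at the fold minimum itself, and estimates under that minimum were not called whatever their adjusted p. At a log2 change of 2, 94% to 97.5% were called.

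The members and the gene lists were chosen with earlier results of these data known. The text names all members, up to 4 called genes per list and comparison by size of change (the smallest p where none was called), the 2 genes nearest in profile, and the neighbours of C1R, C1S, CD46 and CD55. Marker genes, untested or uncalled list genes, and the factors that bind the motifs were named after their values were seen. Alternatives covered the offset, normalization, filter, probe set choice, variance prior, replicate block and each array left out.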

Additional observations from a re-analysis of the deposited data

How the results depend on the processing

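Over 20 alternative settings, of which each gene could be recomputed under 18 to 20, 458 of 462 recomputed values of the 8 tested genes kept their direction and side of the call. The other 4 changed sign and were called under no setting. They were C1S in MIV against MII, at 0.14 with the mean of all probe sets, 0.00084 without MII replicate 3 and 0.0307 without MIV replicate 1 (range over all arrays left out -0.18 to 0.03), and CD55 in MIV against MII, at -0.10 with the mean of all probe sets. Leaving out each array in turn, 5 to 5 genes were called in MIII against MII, 4 to 4 in MIV against MIII and 1 to 1 in MIV against MII. With an adjusted p under 0.05 and no fold minimum the counts were 8, 7 and 3 in the same order, beside 47.2%, 51.9% and 42.2% of all genes. With probe sets whose names carry no suffix, 3 of the 9 genes could be tested, and 2 were called in MIII against MII and 1 in MIV against MIII, because fewer genes were tested.

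Same-numbered replicates did not deviate together, with correlations of -0.039 to 0.039, so the numbers were not taken as pairs. With the replicate number as a block, the counts stayed at 5, 4 and 1. The limits are 1 line per stage, 3 arrays per line, signals near the background for CFB, C1R, C1S and CFI outside MIII, which make their folds depend on the offset (CFB from 1.79 to 3.69 and C1S from 3.38 to 6.73 on the log2 scale in MIII against MII, with CFB at 1.26 for the mean of its probe sets), and probe sets of CD55 that differ in sign.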
